A study of Mus musculus with 19 samples.

Results

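The nuclear genes for subunits of respiratory complexes II to V were followed in the ribosome-bound mRNA of spiny projection neurons from the mouse striatum. The set was a fixed list of 39 symbols, and each was matched to 1 protein-coding gene ID among the 39017 genes of the deposited tables. All 39 also passed the filter on low counts and were among the 13926 genes tested. Mice carried EGFP-L10a, a ribosomal protein fused to a fluorescent protein, on a background given in the labels as C56BL/6J, and all were female. In the strain Drd1::EGFP-L10a the tag follows the gene of the D1 dopamine receptor and in Drd2::EGFP-L10a that of the D2 receptor, so ribosomes of any other cell that uses the same promoter are pulled down as well. Striata were taken at 42 days (young) or 2 years (old), with 4 libraries in each of the 4 groups young D1, old D1, young D2 and old D2. The labels do not say whether a library came from 1 animal or a pool, and 3 ribosome profiling samples of NIH-3T3 fibroblasts are not analysed here.

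Complex II (succinate dehydrogenase) passes electrons from the citric acid cycle to ubiquinone, complex III passes them to cytochrome c, and complex IV (cytochrome c oxidase) reduces oxygen. Complexes III and IV pump protons across the inner mitochondrial membrane, and complex V (ATP synthase) lets them back through its membrane part Fo to drive ATP synthesis in its catalytic head F1. Complexes III to V also hold subunits encoded in mitochondrial DNA, which cytosolic ribosomes do not translate, while all subunits of complex II are nuclear. Spiny projection neurons, like other neurons, meet most of their ATP demand by this route.

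Libraries held 27484038 to 70903004 assigned fragments. The old D1 libraries stood apart from the other 12: 10356 to 13676 genes had a count against 12766 to 14974, and fragments averaged 151 to 164 bases, against 170.3 to 195 elsewhere. They form a whole group, and their index sequences end in letters shared with no other group. Index can therefore not be told apart from age in D1 neurons, nor from neuron type at 2 years. It also enters the D1 minus D2 difference of the age changes. The 7 listed D1 markers (Drd1 and Tac1 among them) summed to 2489 to 3253 TPM in young D1 and 4628 to 7467 TPM in old D1. In D2 libraries they summed to 134 to 156 TPM at 42 days and 413 to 657 TPM at 2 years. With age in D2, 3 of the 7 were called higher by edgeR, against 0.0646% of all genes. Mean Drd1 was 8.31 TPM in young and 67.6 TPM in old D2. The 5 detected D2 markers (Drd2 and Penk among them) summed to 5456 to 11479 TPM in the D2 libraries and 108 to 551 TPM in the D1 libraries. The 7 markers shared by both kinds of spiny neuron summed to 5369 to 6701 TPM in young D1 and 4318 to 4552 TPM in old D1, and of these Ppp1r1b fell, from 3766 ± 407 to 1764 ± 367 TPM (SD, n = 4; edgeR adjusted p = 0.000114). Astrocyte markers summed to 34.8 to 89.0 TPM in young D1 and 34.0 to 61.3 TPM in old D1, and oligodendrocyte markers to 127 to 289.7 TPM and 75.6 to 190.5 TPM. In young and old D2 the astrocyte sums were 11.4 to 15.4 TPM and 35.5 to 55.6 TPM. The oligodendrocyte sums were 158 to 267 TPM and 247 to 353 TPM there. Markers of GABAergic interneurons summed to 62.1 to 139.8 TPM in young D1 and 30.5 to 546 TPM in old D1, with Sst at 509 TPM in old D1 replicate 3, and Nos1 of this list rose (log2 3.91 ± 0.78 SE, adjusted p = 0.00371). Glutamatergic markers summed to 1.47 to 17.8 TPM in young D1 and 0.09 to 139 TPM in old D1, where Tbr1 made up all of the sum in replicate 4. Microglial markers reached at most 9.33 TPM in young and 18.03 TPM in old D1, endothelial and mural markers 4.59 and 20.7 TPM, both highest in old D1 replicate 3, and ependymal markers 4.64 and 0 TPM. C1qa was at 0 in all 16 libraries and Cldn5 in both D1 groups, while Tmem119, Pecam1, Ly6c1 and Vtn were at 0 in all 4 old D1 libraries and not in all young D1 ones. The part of these differences in the results below was not tested.

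The 39 subunit mRNAs were abundant and spanned a wide range of TPM (a share of the library per transcript length, so that genes can be compared). Their summed TPM was 38745 ± 3637 (SD, n = 4) in young D1, 32341 ± 3917 in old D1, 34730.0 ± 2490.3 in young D2 and 31342 ± 3157 in old D2. Atp5b, the catalytic beta subunit of F1, had the highest mean over the 16 libraries, 6209.8 TPM, and Uqcrc1, a core protein of complex III, the lowest, 67.4 TPM. These values sum all isoforms of a gene, and the orders of abundance here and below rest on such sums. Protein-coding isoforms held a mean of 5.02 to 22.7% of the Atp5b TPM by group, so Atp5b is not shown to lead in coding mRNA. The median coefficient of variation of a subunit between 4 libraries of a group was 24.5% in young D1 and 30.4% in old D1, and in D2 it was 21.0% at 42 days and 21.6% at 2 years.

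With age in D1 neurons, 14 of the 39 subunit mRNAs fell and 4 rose at an adjusted p under 0.05 (edgeR's quasi-likelihood test over 13926 genes), while 21 were not called. Complex IV held 7 of the fallen ones, and the risen ones were Sdha, Uqcrb, Atp5a1 and Atp5j. Of all genes tested, 10.8% were called in this comparison (5.39% higher and 5.44% lower), and of the 3229 genes with a mean of at least 50 TPM, which all 39 subunits reached, 25.7% were called (15.2% higher and 10.4% lower). The called share of the subunits was 46.2%. Their median log2 fold change was -0.73 against -0.06 over all genes, and 28 of 39 had an unadjusted p under 0.05, against 3745 of 13926 genes. The 4 values of each group did not overlap for 21 subunits, 5 higher and 16 lower, against 13.8% of all genes. Since these are bulk pulldowns, fewer neurons and less mRNA per neuron cannot be told apart, and a TPM is a share of each library.

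By complex, II had 1 of 4 subunits higher and 1 lower, III had 1 of 9 higher and 3 lower, and IV had 0 of 11 higher and 7 lower. In the F1 head of complex V 1 of 5 was higher and 1 lower, and in its Fo part and stalks 1 of 10 was higher and 2 were lower. The median log2 change was -1.06 in complex IV, -0.60 in III, -0.25 in F1, -0.39 in Fo and stalks and 0.11 in II. Summed TPM of the complex IV subunits was 16839 ± 2917 in young D1 and 8225 ± 1622 in old D1, with 14584 TPM as the lowest young and 9748 TPM as the highest old library. The same sum was 14493 ± 1285 and 12215 ± 1605 TPM in young and old D2. The F1 sum was 7639 ± 697 and 9837 ± 1591 TPM in young and old D1, ranges that overlapped. Most of it was Atp5b, at means of 5622 and 7732 TPM, of which protein-coding isoforms held 18.3% and 5.02%. From counts Atp5b was not called (log2 -0.25), so the F1 sum shows no rise of coding mRNA.

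**Figure D1:**
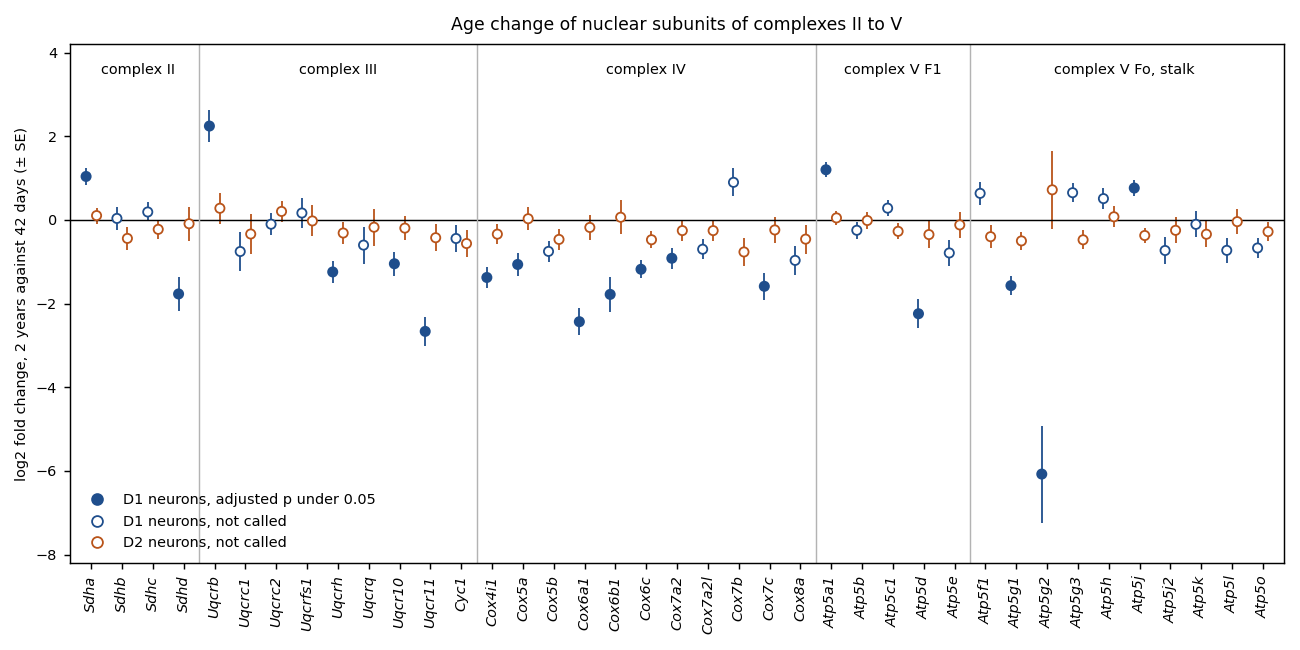
Log2 fold change with age (2 years against 42 days, ± SE, y axis) of each of the 39 subunit genes (x axis, by complex) in D1 (blue) and D2 (orange) neurons. Filled points passed an adjusted p of 0.05: 18 of 39 in D1, from -6.08 (Atp5g2) to 2.25 (Uqcrb), and 0 of 39 in D2.

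The 4 subunits of complex II did not move together. Sdha, the flavoprotein that oxidises succinate, was at 272, 339.9, 307 and 217 TPM in the young D1 libraries and 703, 639.8, 526 and 549.8 TPM in the old D1 libraries. Sdha in D2 neurons was at 365, 279.5, 215 and 227 TPM at 42 days and 326, 247, 298 and 386 TPM at 2 years. All 4 old D1 libraries were above the other 12, and Sdha rose with age in D1 (log2 1.04 ± 0.19 SE, adjusted p = 0.00201). Sdhd, a small membrane anchor of the complex, was at 358, 373, 391 and 452 TPM in the young D1 libraries and 161, 139, 194 and 16.6 TPM in the old D1 libraries. Sdhd in D2 neurons was at 308, 246, 302 and 372 TPM at 42 days and 323, 254, 337 and 306 TPM at 2 years. Sdhd fell in D1 (log2 -1.77 ± 0.41 SE, adjusted p = 0.01), with no overlap between young and old and with the fourth old D1 library far below the other old ones. Sdhb, the iron-sulfur subunit, was at 133, 182, 185 and 131 TPM in the young D1 libraries and 255, 137, 152 and 137 TPM in the old D1 libraries. Sdhb in D2 neurons was at 120.2, 222, 172 and 163 TPM at 42 days and 129, 154, 129 and 117 TPM at 2 years. Sdhb overlapped between all groups apart from 1 high old D1 library, and its age change in D1 was 0.04 ± 0.27 SE with an adjusted p of 0.958. Sdhc, the other membrane anchor, was at 166, 266, 222 and 206 TPM in the young D1 libraries and 112, 182, 129 and 155 TPM in the old D1 libraries. Sdhc in D2 neurons was at 159, 188, 236 and 85.4 TPM at 42 days and 228, 156, 142 and 153 TPM at 2 years. Sdhc overlapped between young and old D1 and was not called there (log2 0.19 from counts, adjusted p = 0.649), although its mean TPM was 215 ± 41.5 in young and 144 ± 30.5 in old D1. The gap between counts and TPM goes with its isoforms, described further down.

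In complex III the small subunits Uqcrb, Uqcr11, Uqcrh and Uqcr10 were called in D1, 1 of them higher. Uqcrb, a small subunit near the ubiquinone site, was at 161, 154, 421 and 276 TPM in the young D1 libraries and 1198, 929, 839 and 1812 TPM in the old D1 libraries. Uqcrb in D2 neurons was at 218, 266, 249 and 468 TPM at 42 days and 484, 360.1, 408 and 271 TPM at 2 years. Every old D1 library lay above the other 12, and Uqcrb rose in D1 (log2 2.25 ± 0.39 SE, adjusted p = 0.00115). Uqcr11, a small transmembrane subunit, was at 1088, 547, 691 and 1074 TPM in the young D1 libraries and 159.7, 74.3, 199 and 118 TPM in the old D1 libraries. Uqcr11 in D2 neurons was at 955, 872, 805 and 751 TPM at 42 days and 404, 919, 647 and 668 TPM at 2 years. Uqcr11 fell in D1 (log2 -2.66 ± 0.35 SE, adjusted p = 0.000144) and had its 4 lowest values of 16 in old D1. Uqcrh, the hinge protein beside cytochrome c1, was at 1266, 1433, 1498 and 1002 TPM in the young D1 libraries and 658, 787, 534 and 442 TPM in the old D1 libraries. Uqcrh in D2 neurons was at 614, 1221, 1140.3 and 1091 TPM at 42 days and 931, 1069.7, 679.9 and 879 TPM at 2 years. Uqcrh fell with no overlap within D1, although the old D1 values reached into those of D2 (log2 -1.24 ± 0.26 SE, adjusted p = 0.00491). Uqcr10, another small transmembrane subunit, was at 1203, 725, 835 and 1178 TPM in the young D1 libraries and 386, 497, 441 and 593 TPM in the old D1 libraries. Uqcr10 in D2 neurons was at 695, 755, 1071 and 955 TPM at 42 days and 589.6, 1058, 692 and 845 TPM at 2 years. Uqcr10 fell in D1 (log2 -1.05 ± 0.28 SE, adjusted p = 0.0233), a call that ended when any of 3 libraries was dropped, young D1 replicate 1, young D1 replicate 4 or old D1 replicate 1 (adjusted p = 0.0621, 0.0766 and 0.0572). It also ended after correction for GC content and gene length, which left a log2 change of -0.24 (adjusted p = 0.631).

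The electron carriers and core proteins of complex III were not called in D1. Cyc1, cytochrome c1, which hands electrons to cytochrome c, was at 169, 195, 243 and 98.0 TPM in the young D1 libraries and 144, 179, 176 and 48.5 TPM in the old D1 libraries. Cyc1 in D2 neurons was at 201, 342, 316 and 298 TPM at 42 days and 264, 207, 134 and 234 TPM at 2 years. Cyc1 overlapped between ages in both neuron types (D1 log2 -0.44, adjusted p = 0.421; D2 log2 -0.56, adjusted p = 1.0). Uqcrfs1, the Rieske iron-sulfur protein, was at 105, 103, 92.5 and 153 TPM in the young D1 libraries and 103, 84.4, 87.0 and 248 TPM in the old D1 libraries. Uqcrfs1 in D2 neurons was at 86.3, 104, 103 and 113 TPM at 42 days and 91.0, 114, 86.0 and 136 TPM at 2 years. Uqcrfs1 also overlapped, with 1 old D1 library far above the rest (D1 log2 0.17, adjusted p = 0.835). Uqcrc1, a core protein, was at 65.8, 107, 51.4 and 110.0 TPM in the young D1 libraries and 99.5, 13.3, 38.4 and 60.9 TPM in the old D1 libraries. Uqcrc1 in D2 neurons was at 69.5, 103, 64.5 and 50.2 TPM at 42 days and 71.4, 57.5, 43.3 and 72.6 TPM at 2 years. Uqcrc1, the least abundant of the 39, varied too much between libraries of a group for a call (D1 log2 -0.75 ± 0.47 SE, adjusted p = 0.326). The second core protein Uqcrc2 and the small subunit Uqcrq were not called either (D1 log2 -0.10 and -0.60).

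Complex IV had the most calls in 1 direction, 7 of its 11 nuclear subunits lower with age in D1. All 11 had an unadjusted p under 0.05, of which 10 changed downward and 1, Cox7b, upward. Cox6a1, the form of subunit 6a found in most tissues, was at 2896, 2827, 3032 and 4864 TPM in the young D1 libraries and 940.4, 359, 1030.5 and 378 TPM in the old D1 libraries. Cox6a1 in D2 neurons was at 2149, 2450.1, 2908 and 2206 TPM at 42 days and 2134, 2878, 2347 and 1683 TPM at 2 years. Cox6a1 fell to values below all other 12 libraries (log2 -2.43 ± 0.32 SE, adjusted p = 0.000148). Cox7c, a small subunit and the most abundant mRNA of the complex, was at 4251, 3009, 2688 and 5754 TPM in the young D1 libraries and 829, 1225, 1162 and 2106 TPM in the old D1 libraries. Cox7c in D2 neurons was at 2961, 2422, 3336 and 2236 TPM at 42 days and 1589, 2622, 2823 and 2607 TPM at 2 years. Cox7c fell in D1 without overlap (log2 -1.59 ± 0.32 SE, adjusted p = 0.00411), although its highest old D1 library exceeded the lowest old D2 library. Cox6b1, which faces the intermembrane space, was at 1157, 1165, 923 and 1546 TPM in the young D1 libraries and 137, 200.3, 367 and 669.6 TPM in the old D1 libraries. Cox6b1 in D2 neurons was at 712, 688, 957 and 508 TPM at 42 days and 595, 1019, 794 and 749 TPM at 2 years. Cox6b1 fell (log2 -1.78 ± 0.42 SE, adjusted p = 0.0101) over a wide range of old D1 values that reached into those of D2.

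Cox4i1 and Cox6c showed a similar order of groups. Cox4i1, the common form of the largest nuclear subunit, was at 1148, 936, 893 and 1221 TPM in the young D1 libraries and 544, 420.5, 730.4 and 599 TPM in the old D1 libraries. Cox4i1 in D2 neurons was at 1144, 1319, 1416 and 1269 TPM at 42 days and 1040.0, 1121, 1008 and 898 TPM at 2 years. Cox4i1 was lower in every old D1 library than in any of the other 12 (log2 -1.37 ± 0.24 SE, adjusted p = 0.00149), and this call ended after correction for GC content and gene length (log2 -0.41, adjusted p = 0.195). Cox6c, a small membrane subunit, was at 1999, 2319, 2322 and 2471 TPM in the young D1 libraries and 795, 931, 1506 and 969 TPM in the old D1 libraries. Cox6c in D2 neurons was at 2170.1, 2359, 2625 and 2215 TPM at 42 days and 1369, 2056, 1959 and 1700.2 TPM at 2 years. Cox6c fell in D1 without overlap (log2 -1.18 ± 0.21 SE, adjusted p = 0.0015). Cox5a, a subunit on the matrix side, was at 896, 567, 669 and 979.9 TPM in the young D1 libraries and 561, 295, 399.9 and 316 TPM in the old D1 libraries. Cox5a in D2 neurons was at 512, 513, 753 and 569.6 TPM at 42 days and 426, 577, 750.4 and 778 TPM at 2 years. Cox5a fell in D1 (log2 -1.06 ± 0.27 SE, adjusted p = 0.0177), just without overlap, and the call ended without young D1 replicate 4 (adjusted p = 0.0649). Cox7a2, the form of subunit 7a of most tissues, was at 501, 501, 811 and 584 TPM in the young D1 libraries and 244, 325, 449 and 302 TPM in the old D1 libraries. Cox7a2 in D2 neurons was at 393, 533, 444 and 692 TPM at 42 days and 455, 436, 544 and 381 TPM at 2 years. Cox7a2 had the smallest called drop of the complex (log2 -0.91 ± 0.25 SE, adjusted p = 0.0244), lost when young D1 replicate 3, young D1 replicate 4 or old D1 replicate 1 was dropped (adjusted p = 0.078, 0.058 and 0.0624) and after correction for GC content and gene length (log2 -0.66, adjusted p = 0.115).

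Cox7b was the exception in complex IV. Cox7b, a small subunit, was at 621, 642, 1387 and 747 TPM in the young D1 libraries and 1705, 1809.8, 1819 and 2375 TPM in the old D1 libraries. Cox7b in D2 neurons was at 439.8, 858, 836 and 1699 TPM at 42 days and 762, 811, 401 and 413 TPM at 2 years. Cox7b had its 4 highest values of 16 in old D1, yet from counts the age change missed the threshold (log2 0.90 ± 0.34 SE, adjusted p = 0.092). Protein-coding isoforms held a mean of 33.6% of the Cox7b TPM in young D1 and 14.5% in old D1, so a rise of its coding mRNA is not shown. Cox7a2l, which takes part in joining complexes III and IV, was at 449.8, 555, 659.6 and 524 TPM in the young D1 libraries and 336, 211, 517 and 352 TPM in the old D1 libraries. Cox7a2l in D2 neurons was at 322, 399, 393 and 496 TPM at 42 days and 453, 376, 284 and 321 TPM at 2 years. Cox7a2l, the least abundant mRNA of the complex, overlapped between ages and was not called (D1 log2 -0.70, adjusted p = 0.0723). Cox5b and Cox8a had D1 changes of -0.75 and -0.97 on the log2 scale with adjusted p of 0.0628 and 0.0828.

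**Figure D2:**
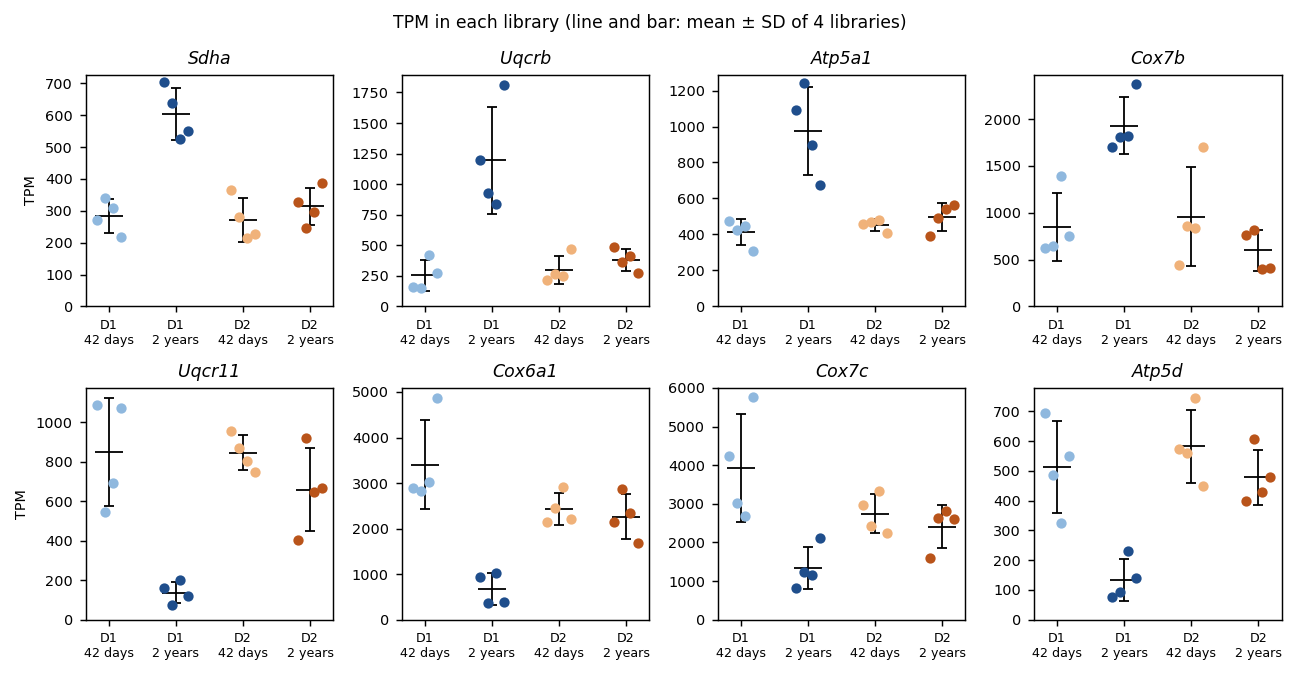
TPM (y axis, from 0) in each of the 4 libraries per group (points; black line and bar, mean ± SD) for 8 subunit genes. In Sdha, Uqcrb, Atp5a1 and Cox7b the old D1 points lie highest, and in Uqcr11, Cox6a1 and Atp5d they lie below all other 12 points. TPM sums all isoforms of a gene, and for Cox7b a rise of coding mRNA is not shown.

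In the F1 head the alpha subunit rose and the delta subunit fell. Atp5a1, the alpha subunit, was at 476, 423, 447 and 309 TPM in the young D1 libraries and 1089.6, 1242, 899 and 673 TPM in the old D1 libraries. Atp5a1 in D2 neurons was at 456, 467, 481 and 407 TPM at 42 days and 392, 491, 542 and 566 TPM at 2 years. All old D1 values of Atp5a1 exceeded the other 12 (log2 1.20 ± 0.17 SE, adjusted p = 0.000339). Atp5d, the delta subunit of the central stalk, was at 696, 486, 324 and 549 TPM in the young D1 libraries and 74.7, 91.8, 231 and 140.0 TPM in the old D1 libraries. Atp5d in D2 neurons was at 574, 559.5, 745 and 449 TPM at 42 days and 399, 607, 428 and 481 TPM at 2 years. Atp5d fell in D1 to values below the other 12 (log2 -2.24 ± 0.34 SE, adjusted p = 0.000494). Atp5b, the catalytic beta subunit, was at 5936, 5011, 5725 and 5815 TPM in the young D1 libraries and 7549.8, 7512, 5720.0 and 10145 TPM in the old D1 libraries. Atp5b in D2 neurons was at 6012, 5215, 6068 and 5272 TPM at 42 days and 4134, 5991, 6578 and 6674 TPM at 2 years. Atp5b was not called (log2 -0.25 ± 0.20 SE from counts, adjusted p = 0.467), with 3 of 4 old D1 TPM values above all others. The gamma subunit Atp5c1 and the epsilon subunit Atp5e had D1 changes of 0.28 and -0.79 with adjusted p of 0.381 and 0.108.

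Among Fo and stalk subunits Atp5j rose and Atp5g1 and Atp5g2 fell with age in D1, by values that sum all isoforms of a gene. Protein-coding isoforms held a mean of 25.5% of the Atp5j TPM in young D1 and 11.15% in old D1, so a rise of its coding mRNA is not shown. Atp5j, coupling factor 6 of the outer stalk, was at 858, 1179.7, 1266 and 698 TPM in the young D1 libraries and 1900.0, 2083, 1784 and 1753 TPM in the old D1 libraries. Atp5j in D2 neurons was at 969, 894, 807 and 1212 TPM at 42 days and 841, 888, 693 and 625 TPM at 2 years. Atp5j in old D1 exceeded the other 12 libraries (log2 0.76 ± 0.19 SE, adjusted p = 0.0152), and its call ended without young D1 replicate 1 or 4 (adjusted p = 0.0698 and 0.0593) and after correction for GC content and gene length (log2 0.39, adjusted p = 0.296). Atp5h, subunit d of the outer stalk, had the highest mean TPM of Fo and stalks, but protein-coding isoforms held just 1.25 to 33.0% of it by group. Atp5h was at 1832, 2227, 2389 and 1659.9 TPM in the young D1 libraries and 3307, 2132, 3309 and 4621 TPM in the old D1 libraries. Atp5h in D2 neurons was at 1079, 1946, 1664 and 1608 TPM at 42 days and 1801, 1330.3, 2376 and 1248 TPM at 2 years. Atp5h overlapped between ages in D1 (log2 0.51, adjusted p = 0.194). Atp5f1, subunit b of the outer stalk, was at 302, 266, 393 and 161 TPM in the young D1 libraries and 458, 266, 379 and 702 TPM in the old D1 libraries. Atp5f1 in D2 neurons was at 301, 336, 305 and 346 TPM at 42 days and 244, 203, 286 and 297 TPM at 2 years. Atp5f1 overlapped likewise (log2 0.64, adjusted p = 0.15). The remaining 5, subunits f (Atp5j2), e (Atp5k) and g (Atp5l), the stalk protein OSCP (Atp5o) and Atp5g3, were not called in D1, with log2 changes from -0.73 (Atp5j2) to 0.65 (Atp5g3).

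Subunit c, which forms the rotating proton ring of Fo, is encoded by 3 genes whose targeting sequences differ and whose mature protein is the same. Atp5g1 was at 1682, 1144, 955 and 1581 TPM in the young D1 libraries and 560.2, 393, 410.5 and 486 TPM in the old D1 libraries. Atp5g1 in D2 neurons was at 1257, 979.7, 1417 and 808 TPM at 42 days and 622, 1036, 1063 and 838 TPM at 2 years. Atp5g1 fell in D1 without overlap (log2 -1.57 ± 0.22 SE, adjusted p = 0.000288). Atp5g2 was at 208, 56.7, 32.5 and 138 TPM in the young D1 libraries and 2.41, 0, 0.88 and 3.14 TPM in the old D1 libraries. Atp5g2 in D2 neurons was at 109, 33.3, 81.8 and 39.8 TPM at 42 days and 45.8, 107, 165 and 131 TPM at 2 years. Atp5g2, the least abundant of Fo and stalks, fell nearly to 0 in old D1 (log2 -6.08 ± 1.16 SE, adjusted p = 0.00257), where the expected counts were 11.11, 0, 5.05 and 16.46 against 266.59 to 1358.38 in young D1. Atp5g3 was at 761, 795, 1315 and 735 TPM in the young D1 libraries and 1718, 1638, 1582 and 952 TPM in the old D1 libraries. Atp5g3 in D2 neurons was at 613, 1142, 917 and 1379 TPM at 42 days and 831, 803, 711 and 736 TPM at 2 years. Atp5g3 was not called with age in D1 (log2 0.65, adjusted p = 0.075), and 1 high young library overlapped the old ones.

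The make-up of the subunit c mRNA therefore differed in old D1. Atp5g3 gave 28.7, 39.8, 57.1 and 29.9% of the summed TPM of the 3 genes in young D1 and 75.3, 80.6, 79.4 and 66.0% in old D1. Atp5g3 in D2 neurons gave 31.0, 53.0, 38.0 and 61.9% at 42 days and 55.5, 41.3, 36.7 and 43.1% at 2 years. All 4 old D1 shares were above the other 12. Atp5g1 gave a mean of 56.7% in young D1, 24.6% in old D1, 51.0% in young D2 and 49.7% in old D2. The summed TPM of the 3 genes overlapped between ages in D1, 1997 to 2650.4 in young and 1442 to 2281 in old libraries.

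**Figure D3:**
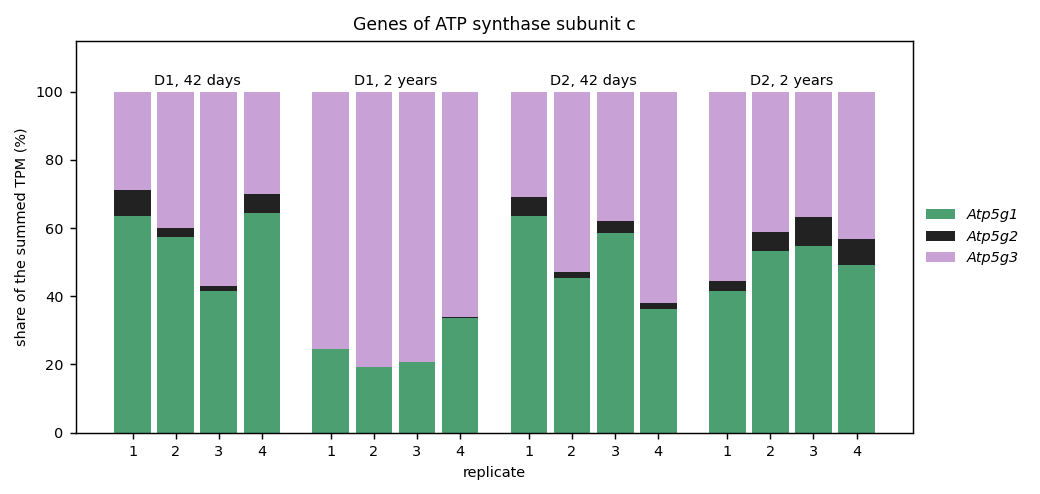
Share (percent, y axis) of Atp5g1, Atp5g2 and Atp5g3 in the summed TPM of the 3 subunit c genes in each library (x axis, replicate within group). Atp5g3 makes up 66.0 to 80.6% in old D1 and 28.7 to 61.9% in the other libraries.

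Promoter windows are given for the 3 subunit c genes, whose levels diverged although they share a mature product, and for Uqcr11, Cox6a1 and Sdha, a pair that fell and 1 that rose with age in D1. Each window runs from 250 bases before to 50 bases after the start of the gene in RefSeq on GRCm38.p6, written 5′ to 3′ on the gene's strand, and capitals mark matches to the motifs named below.
Atp5g1 promoter, chr11:96075582-96075881, minus strand: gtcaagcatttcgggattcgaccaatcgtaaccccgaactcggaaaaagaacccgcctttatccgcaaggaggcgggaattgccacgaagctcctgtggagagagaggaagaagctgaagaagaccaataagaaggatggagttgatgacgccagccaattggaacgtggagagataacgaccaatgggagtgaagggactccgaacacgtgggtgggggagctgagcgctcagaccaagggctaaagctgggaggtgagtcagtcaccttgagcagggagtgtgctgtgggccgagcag
Atp5g2 promoter, chr15:102670998-102671297, minus strand: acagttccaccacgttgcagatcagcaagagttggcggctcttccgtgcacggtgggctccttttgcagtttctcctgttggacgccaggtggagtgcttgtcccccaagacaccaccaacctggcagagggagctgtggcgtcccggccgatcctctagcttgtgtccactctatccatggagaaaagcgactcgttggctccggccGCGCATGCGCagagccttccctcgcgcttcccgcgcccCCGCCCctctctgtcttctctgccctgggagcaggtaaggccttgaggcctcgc
Atp5g3 promoter, chr2:73911277-73911576, minus strand: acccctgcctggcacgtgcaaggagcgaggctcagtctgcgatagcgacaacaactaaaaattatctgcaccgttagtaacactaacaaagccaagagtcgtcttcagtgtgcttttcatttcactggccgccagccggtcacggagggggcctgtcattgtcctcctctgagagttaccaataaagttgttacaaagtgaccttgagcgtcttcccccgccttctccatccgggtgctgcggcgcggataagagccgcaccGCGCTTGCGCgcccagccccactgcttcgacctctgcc
Uqcr11 promoter, chr10:80406772-80407071, minus strand: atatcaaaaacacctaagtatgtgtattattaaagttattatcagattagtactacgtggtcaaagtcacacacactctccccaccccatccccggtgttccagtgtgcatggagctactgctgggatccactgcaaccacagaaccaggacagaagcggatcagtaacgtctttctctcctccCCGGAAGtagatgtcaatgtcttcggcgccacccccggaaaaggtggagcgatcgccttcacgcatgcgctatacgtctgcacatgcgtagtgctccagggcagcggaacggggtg
Cox6a1 promoter, chr5:115348909-115349208, minus strand: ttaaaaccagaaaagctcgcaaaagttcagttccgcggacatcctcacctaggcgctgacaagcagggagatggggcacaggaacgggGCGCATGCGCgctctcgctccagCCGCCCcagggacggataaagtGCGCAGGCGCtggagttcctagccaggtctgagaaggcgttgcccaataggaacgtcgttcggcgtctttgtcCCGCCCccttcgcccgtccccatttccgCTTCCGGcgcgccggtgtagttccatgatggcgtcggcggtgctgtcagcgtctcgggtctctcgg
Sdha promoter, chr13:74350191-74350490, minus strand: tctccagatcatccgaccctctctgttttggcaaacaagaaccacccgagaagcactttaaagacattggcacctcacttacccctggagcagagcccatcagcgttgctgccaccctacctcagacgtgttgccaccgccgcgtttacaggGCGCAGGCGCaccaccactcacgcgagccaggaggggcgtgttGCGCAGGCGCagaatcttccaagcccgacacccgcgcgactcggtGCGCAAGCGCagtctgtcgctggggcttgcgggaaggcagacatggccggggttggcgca

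Motifs were searched on both strands: NRF1 as GCGCA, any base and GCGC, the ETS motif bound by GABPA as CCGGAAG, YY1 as AAGATGGCG and SP1 as GGGCGG. NRF1 and GABPA are known activators of nuclear genes for respiratory subunits. A window was matched for 31 of the 39 genes. NRF1 matched in 10 of the 31 (32.3%), against 4.6% of all 32851 windows and 9.78% of the windows of tested genes. ETS matched in 12 (38.7%), against 8.86% and 16.7%. YY1 matched in 2 (6.45%), against 1.4% and 2.9%, and SP1 in 11 (35.5%), against 35.7% and 61.8%. NRF1 matched in 3 of the 12 fallen and 1 of the 2 risen genes with a window, and ETS in 5 of 12 and 1 of 2. Of the windows shown, Sdha held 3 NRF1 matches, Cox6a1 2, Atp5g2 and Atp5g3 1 each and Atp5g1 and Uqcr11 0. Uqcr11 and Cox6a1 each held 1 ETS match. A match describes letters in these windows only.

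In D2 neurons 0 of the 39 subunits were called with age by edgeR, against 0.079% of all genes. An unadjusted p under 0.05 was reached by 3 subunits, and by 801 of the 13926 genes. DESeq2 also called 0 subunits, against 182 of 17751 genes. The lowest adjusted p was 0.766 (Atp5g1, log2 -0.50 ± 0.22 SE). Of the 39 log2 changes 31 were below 0, with a median of -0.25 against 0.01 over all genes. Cox7b had the lowest change (-0.76 ± 0.34 SE) and Atp5g2 the highest (0.72 ± 0.93 SE). Groups did not overlap for 3 subunits, all lower, against 7.07% of all genes. The 7 subunits of complex IV called in D1 had D2 changes of -0.47 (Cox6c, without overlap, unadjusted p = 0.0344, adjusted p = 0.778 by edgeR), -0.34 (Cox4i1), -0.25 (Cox7a2), -0.24 (Cox7c), -0.18 (Cox6a1), 0.03 (Cox5a) and 0.07 (Cox6b1).

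The difference of the age changes, D1 minus D2, was itself called for 6 of the 39, against 1.77% of all genes and 5.61% of those with a mean of at least 50 TPM. Below 0 were Cox6a1 (log2 -2.25 ± 0.43 SE, adjusted p = 0.0145), Uqcr11 (log2 -2.24 ± 0.46 SE, adjusted p = 0.021), Atp5d (log2 -1.89 ± 0.47 SE, adjusted p = 0.0451) and Atp5g2 (log2 -6.80 ± 1.44 SE, adjusted p = 0.0227). Above 0 were Atp5a1 (log2 1.15 ± 0.24 SE, adjusted p = 0.0227) and Atp5j (log2 1.14 ± 0.27 SE, adjusted p = 0.0379). For the other 12 subunits called with age in D1, Uqcrb and Sdha included, the difference was not called (adjusted p = 0.06 and 0.0769), so a different age change in D2 is not shown for them. The count was 1 (Atp5a1) after correction for GC content and gene length, where 72 of 13821 genes were called. It lay between 1 and 10 when single libraries were left out. It was 1 without old D2 replicate 2 (66 of 14368 genes) and 10 without old D1 replicate 4 (341 of 14516 genes). Cox6a1 alone kept its call with each library left out.

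At 42 days, 0 of the 39 subunits differed between D1 and D2 by edgeR, against 0.409% of all genes. An unadjusted p under 0.05 was reached by 4 subunits, and by 837 of the 13926 genes. DESeq2 called 0 subunits, against 271 of 17751 genes. The lowest adjusted p was 0.705 (Cox7a2l, log2 0.57 ± 0.24 SE). Log2 differences, D1 over D2, ran from -0.62 (Cyc1) to 0.93 (Cox6b1), with a median of 0.35 against 0.02 over all genes, and 29 of 39 were above 0.

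At 2 years, 15 of the 39 differed, 9 higher and 6 lower in D1, against 9.6% of all genes (5.02% higher and 4.58% lower) and 23.9% of those with a mean of at least 50 TPM. This comparison uses the same old D1 libraries as the age comparison and is not independent of it, and neuron type and index cannot be told apart in it. Higher in old D1 were Atp5j (log2 1.34 ± 0.19 SE, adjusted p = 0.000274), Uqcrb (1.89), Cox7b (1.66), Sdha (1.10), Atp5a1 (1.09), Atp5g3 (1.09), Atp5f1 (0.95), Atp5h (0.88) and Sdhc (0.84), all as log2 differences. Lower were Atp5g2 (-5.88), Uqcr11 (log2 -2.06 ± 0.34 SE, adjusted p = 0.000847), Atp5d (-1.93), Cox6a1 (-1.58), Cox4i1 (-1.16) and Atp5g1 (-0.72). Groups did not overlap for 14 of the 39, against 14.8% of all genes, while Sdhc, Atp5h and Atp5f1 were called with overlap. Fo and stalks held 4 of the 9 higher genes. These values sum all isoforms of a gene. Protein-coding isoforms held 1.25% of the Atp5h TPM in old D1 and 33.0% in old D2. For Atp5f1 these shares were 2.26 and 11.3%, for Atp5j 11.15 and 26.9% and for Cox7b 14.5 and 31.6%. For Atp5g3 they were 99.7 and 99.9%. A higher level of coding mRNA is therefore not shown for Atp5h, Atp5f1, Atp5j and Cox7b. Calls of Atp5f1, Atp5g1, Atp5h and Sdhc ended when single libraries were left out, for instance without old D2 replicate 2 (adjusted p = 0.13, 0.0935, 0.112 and 0.0985). The Atp5f1 call was lost without most of the single libraries. It also ended with upper-quartile scaling, no filter, only the compared groups, limma and voom (adjusted p = 0.0639, 0.0504, 0.163, 0.102 and 0.1). The Atp5g1 call also ended with no filter, only the compared groups and voom (adjusted p = 0.0516, 0.137 and 0.194). Correction for GC content and gene length ended 5 calls, among the lower genes Cox6a1 (-0.72, adjusted p = 0.0835), Cox4i1 (-0.44, adjusted p = 0.163) and Atp5g1 (-0.08, adjusted p = 0.877), and among the higher ones Atp5f1 (0.58, adjusted p = 0.161) and Atp5h (0.75, adjusted p = 0.0561). With limma on log2(TPM + 1) 7 were higher and 12 lower, against 481 higher and 1109 lower of 13926 genes. The median over all genes was then -0.31 against -0.07, and Sdhc lay lower in D1 (-0.23).

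For some of these genes RSEM's isoform values also set the old D1 libraries apart. For 26 of the 39 genes 1 isoform held at least 10% of the TPM in any group, and 13 had more. In 8 of these 13 the share of such an isoform lay in old D1 outside all other 12 libraries: Atp5b, Atp5d, Atp5f1, Atp5h, Atp5j, Atp5j2, Cox4i1 and Cox7b. So did Atp5a1-201, within a narrow margin, at 99.74 to 99.89% in old D1 and at most 99.7% elsewhere. How many of all genes with several isoforms did so was not counted. The pattern is therefore not shown to be particular to the subunits. Names are those of GENCODE, and shares are percent of the gene's TPM. Cox4i1-201, which codes for the protein, held 69.6, 54.1, 32.0 and 58.1% in young D1 and 12.5, 9.41, 19.9 and 19.2% in old D1, with means of 54.3% and 62.1% in young and old D2. The rest was mostly Cox4i1-203, a retained-intron transcript of 438 bases that begins 4930 bases into the 5986 bases spanned by Cox4i1-201 and ends with it, at 43.6% in young and 84.4% in old D1.

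Several other genes also had a smaller share of their full-length coding isoform in old D1. Coding Atp5j2-201 and Atp5a1-201 went the other way, and Atp5j2-201 held a mean of 81.7% in young and 88.9% in old D1. Cox7b-201 held 31.6, 34.0, 29.6 and 39.4% in young D1 and 12.7, 17.0, 14.3 and 14.1% in old D1, and the retained-intron transcript Cox7b-203 held the rest. The retained-intron transcript Atp5j-208 held a mean of 72.4% of the Atp5j TPM in young and 88.5% in old D1. Atp5f1-203, annotated as a transcript of nonsense-mediated decay, held 82.9% of the Atp5f1 TPM in young and 96.8% in old D1. Atp5h-201 held 20.6% in young and 1.17% in old D1, while the short Atp5h-207, which starts 2944 bases into the gene's 4274 and shares its end, held 66.2% and 93.0%. Atp5b-201 held 18.3% in young and 5.02% in old D1, so most of the high TPM of Atp5b came from short transcripts without a coding sequence near its end, such as Atp5b-206 of 478 bases. Atp5d changed between a pair of coding isoforms: Atp5d-201 held 90.7% in young and 14.8% in old D1, and Atp5d-202 the rest. Sdhc-202, a coding isoform of 3171 bases, held 42.3, 39.9, 53.3 and 40.5% in young D1 and 100% in each old D1 library, but also 100% in 1 young D2 library. The same count gives less TPM on a longer isoform, which is how the count and TPM values of Sdhc can differ in direction. The share of all protein-coding isoforms lay below the other 12 libraries in old D1 for 6 genes, and its median over the 39 was 99.7% in young and 99.8% in old D1. The same count was not made over all genes. Isoform values are model estimates, and what part fragment length or RNA quality had in them was not tested.

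**Figure D4:**
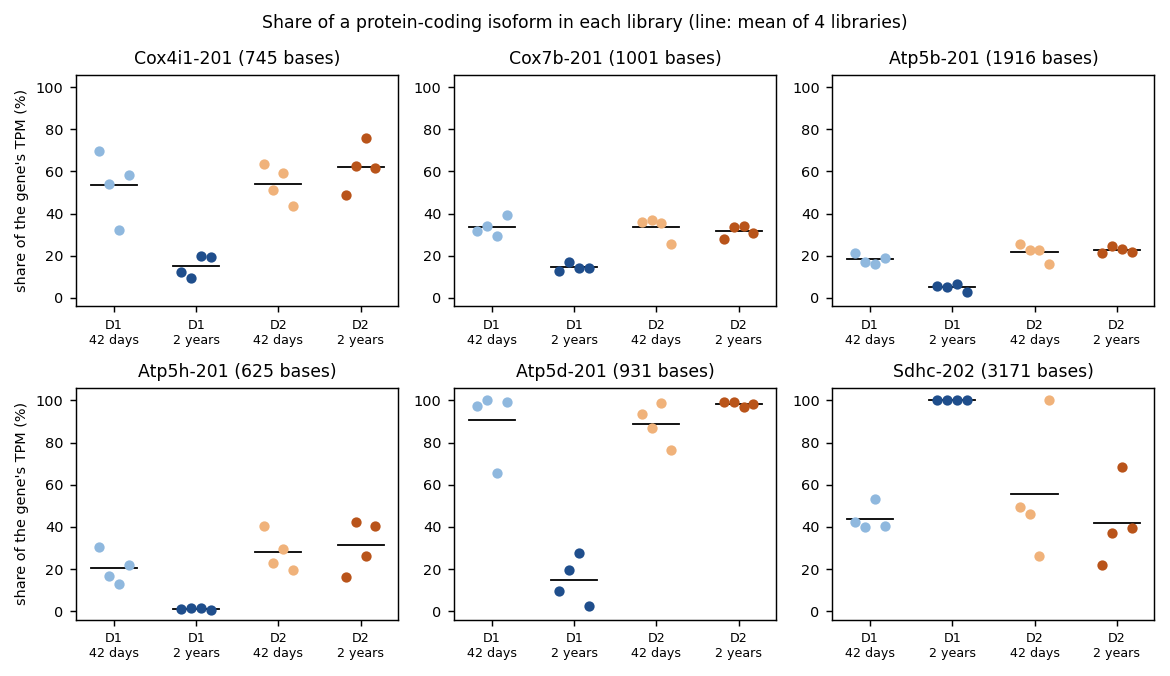
Share of 1 protein-coding isoform in its gene's TPM (percent, y axis) in each library (points; line, mean of 4) for 6 genes. For the first 5 panels the old D1 points lie below all other 12 points, and Sdhc-202 is at 100% in all 4 old D1 libraries.

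Base composition moved with the D1 age changes. Across the 39 genes, Spearman's rho between the D1 log2 age change and the GC content of the gene's most abundant isoform was -0.604, against -0.335 across 13821 genes, as a description over genes of the same libraries. In D2 it was -0.271 across the 39 and -0.0045 across all. Median GC content was 45.4% for the 4 risen genes, 53.7% for the 14 fallen, 50.4% for the 21 not called and 49.97% for all genes tested. With a trend over GC content and length removed in each library, rho in D1 was -0.23 and 14 of the 18 calls were kept (3 higher, 11 lower). Over all genes that fit called 762 of 13821 (422 higher, 340 lower). The change of Uqcr11 was then -1.48, that of Cox6a1 -1.29, that of Atp5d -0.98 and that of Atp5g1 -0.70. In contrast Atp5a1 (1.24), Sdha (0.93), Uqcrb (1.91) and Cox7c (-1.70) moved by less than 1 SE of the fit without it.

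**Figure D5:**
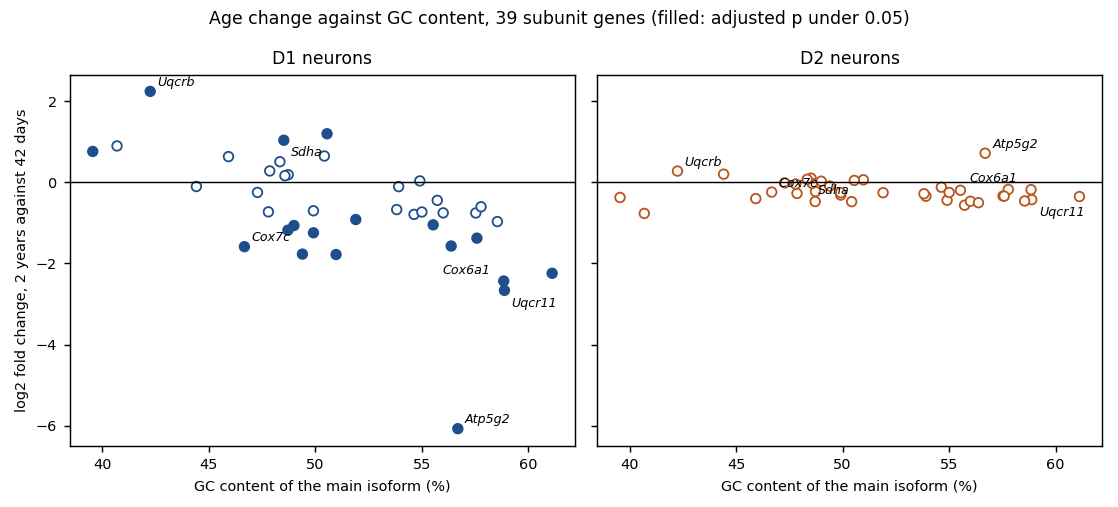
Log2 age change (y axis) against GC content in percent of the gene's most abundant isoform (x axis) for the 39 genes, in D1 (left) and D2 (right) neurons. In D1 genes of low GC content, such as Uqcrb, lie higher than those of high GC content, such as Uqcr11, with rho -0.604, and in D2 rho is -0.271.

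Positions bear on the counts of some members, since strand use is not given in the sources used here. On GRCm38, 13 of the 39 genes are overlapped by a gene on the opposite strand, among them Cox4i1 by Emc8, Atp5j by Gabpa, Atp5a1 by Haus1, Atp5d by Cbarp and Sdha by Gm16125, and without strand the reads of such pairs could not be told apart. Uqcr11 (chromosome 10, 80402997 to 80406830), Cox6a1 (chromosome 5, 115345642 to 115348981), Atp5g1 (chromosome 11, 96068852 to 96075670), Atp5g2 (chromosome 15, 102662864 to 102672352) and Atp5g3 (chromosome 2, 73908447 to 73911326) have no such neighbour. Pseudogenes named after a member exist for 3 (Uqcrh, Atp5k and Atp5l) and held at most 0.056% of the joint counts.

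Of 65 tested genes that work with the subunits, 6 (9.23%) were called with age in D1, near the 10.8% of all genes, and 8 (12.3%) between D1 and D2 at 2 years, against 9.6%. The 6 mitochondrially encoded subunits of complexes III to V gave 0 calls in each of the 5 comparisons by edgeR, also at an unadjusted p under 0.05. Of 23 tested assembly factors of complex IV, 2 rose and 2 fell with age in D1 (17.4% called, against 5.39% higher and 5.44% lower among all genes). Higd1a, which binds complex IV, was at 129, 152, 193 and 90.7 TPM in the young D1 libraries and 443, 768, 359 and 473 TPM in the old D1 libraries. Higd1a rose without overlap (log2 1.81 ± 0.30 SE, adjusted p = 0.000872). Cox15, an enzyme of heme A synthesis, was at 13.0, 8.63, 11.1 and 7.95 TPM in the young D1 libraries and 71.7, 39.4, 14.5 and 63.8 TPM in the old D1 libraries. Cox15 rose over a wide old D1 range (log2 1.83 ± 0.50 SE, adjusted p = 0.0243). Cox17, a copper chaperone of complex IV, was at 688, 706, 401 and 609 TPM in the young D1 libraries and 275, 285, 329 and 223 TPM in the old D1 libraries. Cox17 fell without overlap (log2 -1.19 ± 0.28 SE, adjusted p = 0.0109). Sco2, another copper chaperone, was at 3.60, 8.59, 1.48 and 13.7 TPM in young D1 and listed at 0 in all 4 old D1 libraries (adjusted p = 0.0135).

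Among 6 carriers and channels that move ATP and phosphate, Slc25a4, the ADP/ATP carrier of muscle and brain, rose in D1 (log2 0.84 ± 0.19 SE, adjusted p = 0.00688), from 499.5, 521, 619 and 303 TPM in young to 889, 891, 720.0 and 1071 TPM in old libraries. Of 10 regulators of respiratory genes, Tfb2m, a mitochondrial transcription factor, fell (log2 -2.18 ± 0.63 SE, adjusted p = 0.0327), from 105, 97.7, 69.7 and 150.5 TPM to 5.10, 38.9, 25.3 and 1.13 TPM, with no overlap. Assembly factors of complexes II and III (10 genes) and of V (3 genes) gave 0 calls with age in D1 by edgeR, with 1 and 0 genes at an unadjusted p under 0.05. At 2 years, D1 neurons were above D2 neurons for Atpif1, the inhibitor of ATP hydrolysis by complex V (log2 1.28 ± 0.27 SE, adjusted p = 0.0063), for the complex V subunit Usmg5 (0.98), for cytochrome c, Cycs (1.02), and for Slc25a3 (0.99), Slc25a4 (1.26), Vdac1 (0.88) and Higd1a (2.06), all log2 differences. In D2 neurons the 8 lists (65 genes tested) gave 0 calls with age by edgeR, and 5 genes had an unadjusted p under 0.05.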

How the data were processed

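Ribosome-bound mRNA was isolated by translating ribosome affinity purification (TRAP) and its cDNA was amplified (NuGEN Ovation V2), per the labels' protocols. The submitters' processing notes name STAR 2.5.1b, RSEM 1.2.20 and build mm10. Which annotation release, read length and strand setting the authors used is not given in the sources used here. The authors deposited RSEM expected counts and TPM per gene and TPM per isoform for each library, per the file headers. Expected counts are model estimates (20.0% of nonzero values were not whole) and were rounded.

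Counts of 16 libraries (27484038 to 70903004 fragments) were tested with edgeR 4.0.16 (filterByExpr, TMM, robust quasi-likelihood, 1 mean per group, R 4.3.3), Benjamini-Hochberg adjusted over 13926 genes, two-sided, called under 0.05. On simulated data this test called a minority of the genes made to change, which were drawn from all but the least expressed genes. A gene not called is therefore not shown to be unchanged. Adjusted p-values are from this test unless another is named. TPM served for levels and shares. Alternatives were upper-quartile scaling, no filter, only the compared groups, a correction for GC content and gene length (a smooth trend removed per library), pseudogenes added, DESeq2 1.42.0, limma 3.58.1 on log2(TPM + 1), voom weights and each library left out. The common dispersion corresponds to a biological coefficient of variation of 97.8%, and without molecular identifiers depth gives no bound beyond counting error.

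Names, positions and lengths come from GENCODE M21 on GRCm38, and promoters from RefSeq on GRCm38.p6. Described with all values are subunits called in any comparison (up to 5 per complex, comparison and direction), the highest and lowest of each complex by mean TPM, the subunit c genes, and Sdha, Cyc1, Uqcrfs1, Cox4i1 and Atp5b. Of the other lists, called genes (up to 3 per list, comparison and direction) are named. Members and lists were chosen with earlier results of these data known. Where nothing says that libraries came from separate animals beyond the design's word for biological replicates, p-values measure the spread between these libraries.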

Additional observations from a re-analysis of the deposited data

Results flagged for a closer look

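Among 156 groups of 4 libraries, 10 values stood far from the other 3 of their group, where chance gives about 1 in 20 groups. In young D1, Cox6a1 was at 4864 TPM in replicate 4 (others 2827 to 3032), Cox7b at 1387 TPM in replicate 3 (others 621 to 747) and Atp5g3 at 1315 TPM in replicate 3 (others 735 to 795). In old D1, Sdhb was at 255 TPM in replicate 1 (others 137 to 152), Uqcrfs1 at 248 TPM in replicate 4 (others 84.4 to 103), Cox7b at 2375 TPM in replicate 4 (others 1705 to 1819) and Atp5e at 285 TPM in replicate 3 (others 349.7 to 358). In D2, Atp5l was at 1164 TPM in young replicate 3 (others 916 to 922) and 685 TPM in old replicate 1 (others 1092 to 1116), and Sdhc at 228 TPM in old replicate 1 (others 142 to 156).

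The age change differed between D1 and D2 neurons for 6 subunits by edgeR's test of the difference, given as log2 values (D1 minus D2): -2.24 for Uqcr11, -2.25 for Cox6a1, 1.15 for Atp5a1, -1.89 for Atp5d, -6.80 for Atp5g2 and 1.14 for Atp5j.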

How the results depend on the processing

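No subunit called with age in D1 changed direction under any alternative. Of the 18 calls, 9 held in each alternative (Atp5a1, Atp5d, Atp5g1, Cox6a1, Cox6c, Sdha, Uqcr11, Uqcrb and Uqcrh) and 14 with each library left out. The count was 10 (3 higher, 7 lower) when the fit held just the 8 compared libraries, where fewer libraries set the spread, and 13 to 22 in the other fits. Calls over all genes moved as well. They were 1508 of 13926 in the main fit, 305 of 12244 in that smaller fit, 547 of 13926 with voom and 2929 of 17751 with DESeq2. Calls of Sdhd, Cox7c and Cox6b1 ended just in that smaller fit (adjusted p = 0.0932, 0.0512 and 0.0848), and that of Atp5g2 there and with voom (0.0669 and 0.0783). Of the 6 differences of age changes, 0 held in each alternative. The count was 1 after correction for GC content and gene length, where 72 of 13821 genes were called. With DESeq2 it was 11 (6 higher, 5 lower), where 1227 of 17751 genes were called, and the cause was not tested. Of the 15 calls between D1 and D2 at 2 years, 8 held in each alternative. Sdhc reversed there to -0.23 (adjusted p = 0.654) with limma on log2(TPM + 1), and its isoform lengths differ between these groups. With single libraries left out, the counts ranged from 14 to 22 (D1 age), 0 to 0 (D2 age), 1 to 10 (difference), 0 to 0 (42 days) and 11 to 16 (2 years). Over all genes the D1 age calls then ranged from 909 of 14471 to 2055 of 14425. Shares of subunit c mRNA by expected counts stayed within 1 SD, except Atp5g2 in old D2, at 3.26% against 6.19%. Leaving out libraries moved the Atp5g3 share between 73.6 and 78.4% in old D1 and between 32.8 and 42.3% in young D1. Voom moved the median of all genes to -0.38 with age in D1, and limma on log2(TPM + 1) to -0.15. No paired analysis was possible because the replicate numbers only follow the order of the records and the labels pair no libraries. Counts near 0, as for Atp5g2 in old D1, limit the precision of its fold change.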
